A study of Mus musculus with 6 samples.

Results

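Collagen chain genes were followed from 4T1 P to 4T1 AxR cells by RNA sequencing. They were taken as all protein-coding genes whose symbol is Col, a number, the letter a and a number, which gave 44 of the 53465 genes in the count file. The 4T1 line is a mammary carcinoma of Balb/c mice that spreads spontaneously. P denotes its parental cells, vehicle-treated by the methods of the study and sequenced as 3 libraries. AxR denotes axitinib-resistant cells, also 3 libraries. They were grown out of a metastatic lesion (lung or lymph node) of Balb/c mice that received 100 mg/kg/day of axitinib, which blocks VEGF receptors, and were then held in 0.5 μM axitinib for over 2 months. The treatment labels give axitinib to AxR samples alone, whereas the growth label names 0.5 μM axitinib for every sample. AxR is therefore a derived line that differs from P in origin, passage through an animal and drug exposure, and these cannot be told apart. Nothing states that the 3 libraries of a line were separate cultures, so p-values measure only the spread between these libraries, which may be technical.

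Collagens are matrix proteins built from chains that wind around one another into a triple helix, and a residue of glycine opens each triplet of amino acids along the helix. Fibrillar collagens form the fibrils of connective tissue, and FACIT collagens (fibril-associated, with interrupted helices) sit on the surface of fibrils. Type IV collagen is the network-forming collagen of basement membranes, the sheets on which epithelia rest, and type VI collagen forms beaded filaments close to cells. Several collagens are assembled only from chains of more than one gene. Col4a1 is wound with Col4a2, Col4a5 with Col4a6 or with Col4a3 and Col4a4, and Col6a1 with Col6a2 and Col6a3 or a relative of it.

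The repeat can be read in the coding sequence. The stretches below open the longest uninterrupted run of glycine codons in the GENCODE M21 transcript of 3 chains, and are shown because the first fell and the others rose in AxR cells. They cover coding bases 127 to 207 of Col4a1, 2464 to 2544 of Col4a6 and 766 to 846 of Col6a1, counted from the start codon, and capitals mark the first bases of each glycine codon.
Col4a1: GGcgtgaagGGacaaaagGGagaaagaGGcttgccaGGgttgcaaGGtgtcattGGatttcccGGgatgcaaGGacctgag
Col4a6: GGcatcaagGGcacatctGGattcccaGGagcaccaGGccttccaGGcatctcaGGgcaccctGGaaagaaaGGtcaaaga
Col6a1: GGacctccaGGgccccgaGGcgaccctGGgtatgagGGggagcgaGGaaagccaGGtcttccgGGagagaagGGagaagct
By this choice of stretch, a glycine codon returns every 9 bases in each of the 3. The run of such triplets was 338 long in Col1a1, Col1a2, Col5a1 and Col11a2, whereas it broke after 40 triplets in Col4a1, 66 in Col4a2, 42 in Col4a5 and 45 in Col4a6, and reached 87 in both Col6a1 and Col6a2. Exons followed the same unit. Of 1917 internal coding exons of the collagen chain genes, 63.8% had a length divisible by 9 and 24.5% were exactly 54 bases long, against 13.7% and 0.444% of 157051 internal coding exons of all other protein-coding genes. The share of exons of 54 bases was 48.6% in the fibrillar class and 26.3% among FACIT genes, but 4.43% in the basement membrane class.

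**Figure D1:**
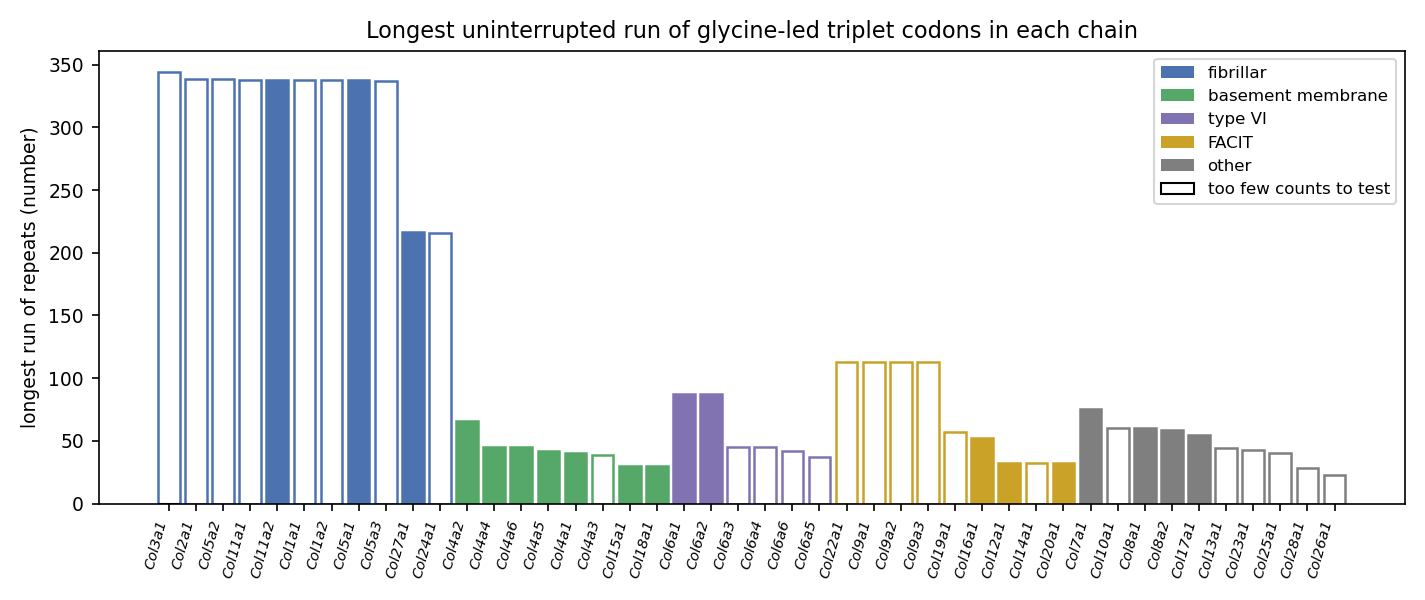
Longest uninterrupted run of glycine-led triplet codons (number of triplets) in the coding sequence of each of the 44 chains, coloured by class, with open bars for the 25 chains that had too few counts to be tested. The long bars of the fibrillar class (216 to 344 triplets) are mostly open, and the short bars of the basement membrane class are mostly filled.

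Col4a5 and Col4a6 lie head to head on chromosome X with 1309 bases between their annotated starts. The bases before each start are shown because both genes rose in AxR cells. They are RefSeq sequence of GRCm38.p6, Col4a5 from chrX:141475169-141475384 on the plus strand and Col4a6 from chrX:141474077-141474326 on the minus strand. Capitals mark the CCAAT box before Col4a5 and, before Col4a6, the GC box GGGCGG on its reverse strand.
Col4a5: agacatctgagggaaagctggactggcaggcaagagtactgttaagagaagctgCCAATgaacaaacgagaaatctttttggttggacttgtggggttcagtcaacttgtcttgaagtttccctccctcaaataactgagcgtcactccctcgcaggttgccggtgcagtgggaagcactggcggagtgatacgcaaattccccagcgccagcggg
Col4a6: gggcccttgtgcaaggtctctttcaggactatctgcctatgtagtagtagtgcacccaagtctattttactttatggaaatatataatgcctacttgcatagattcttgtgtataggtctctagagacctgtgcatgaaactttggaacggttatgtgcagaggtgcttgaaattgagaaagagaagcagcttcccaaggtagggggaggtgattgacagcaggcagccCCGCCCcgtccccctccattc
The GC box GGGCGG, the E box CACCTG, the CCAAT box, the TATA sequence TATAAA and the AP-1 site TGACTCA were searched on both strands in 250 bases before each RefSeq start, where 35 of the 44 genes had 38 windows. GGGCGG stood in 22 of the 38 windows and in 32.7% of 32851 windows of all genes, and Col4a5's window held it outside the bases printed here. CCAAT stood in 13 of the 38 windows (33.8% of all windows), TATAAA in 5 (12.4%), CACCTG in 4 (17.2%) and TGACTCA in 1, that of Col6a1 (4.46%). A match describes letters and not a bound site.

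Estimated counts summed to between 15495260 and 17294525 per library, and 13550 genes had enough counts to be tested. Levels are given as CPM, counts scaled to the normalized library size, and a count of 3 was taken as the floor, which was at most 0.196 CPM. Markers of the cells that usually make collagen were few. Of 12 fibroblast markers, 5 were at or under the floor in every library, Lum and Thy1 had no count, and the summed level was 23.6 to 25.5 CPM in P and 23.5 to 24.6 CPM in AxR libraries. Most of that sum was Pdgfra (22.6 CPM in P and 10.1 CPM in AxR cells) and Ogn (0.858 and 12.7 CPM). Endothelial markers summed to 0.425 to 0.635 CPM in P and 0 to 0.191 CPM in AxR libraries, mural markers to 0.462 to 0.717 and 0.953 to 1.19 CPM, leukocyte markers to 0.0652 to 0.365 and 0.127 to 0.284 CPM, and lung epithelial markers to 0.391 to 0.486 and 0.701 to 0.967 CPM. The 7 carcinoma epithelial markers, all present, summed to 1893 to 2115 CPM in P and 3001 to 3177 CPM in AxR libraries. Of these, 5 were higher and 2 lower in AxR cells, where 32.8% of all tested genes were higher and 30.8% lower. The lower ones were Krt19 (8.88 CPM in P and 3.56 CPM in AxR cells) and Cldn7 (8.22 and 0.751 CPM).

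Of the 44 collagen chain genes, 19 were tested, 9 were higher in AxR than in P cells, 6 were lower and 4 did not pass the threshold (adjusted p under 0.05 in the quasi-likelihood test of edgeR, with the Benjamini-Hochberg correction taken over all 13550 genes). Over all genes tested 32.8% were higher and 30.8% were lower. With a log2 fold change of at least 1 in size also required, 5 collagen genes were higher and 3 lower, where the shares over all genes were 7.99% and 4.72%. The higher genes of that size were Col15a1, Col6a1, Col4a6, Col6a2 and Col4a5, and the lower ones were Col7a1, Col17a1 and Col12a1. The libraries of the lines did not overlap for 15 of the 19, against 68.3% of all genes tested. The median log2 fold change of the 19 was 0.38, and that of all genes 0.0058. Of all 13550 genes tested, 12277 passed the low-count filter in each line taken alone and 1034 in one line only. Of the 19 collagen genes, 11 passed it in each line and 7 in one line only. The 7 were Col4a6, Col6a2, Col15a1, Col8a2, Col20a1 and Col27a1, which passed through AxR, and Col17a1, which passed through P, so their being tested leans to a difference in that direction. A change in these bulk libraries cannot tell fewer cells that express a gene from less RNA per cell.

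**Figure D2:**
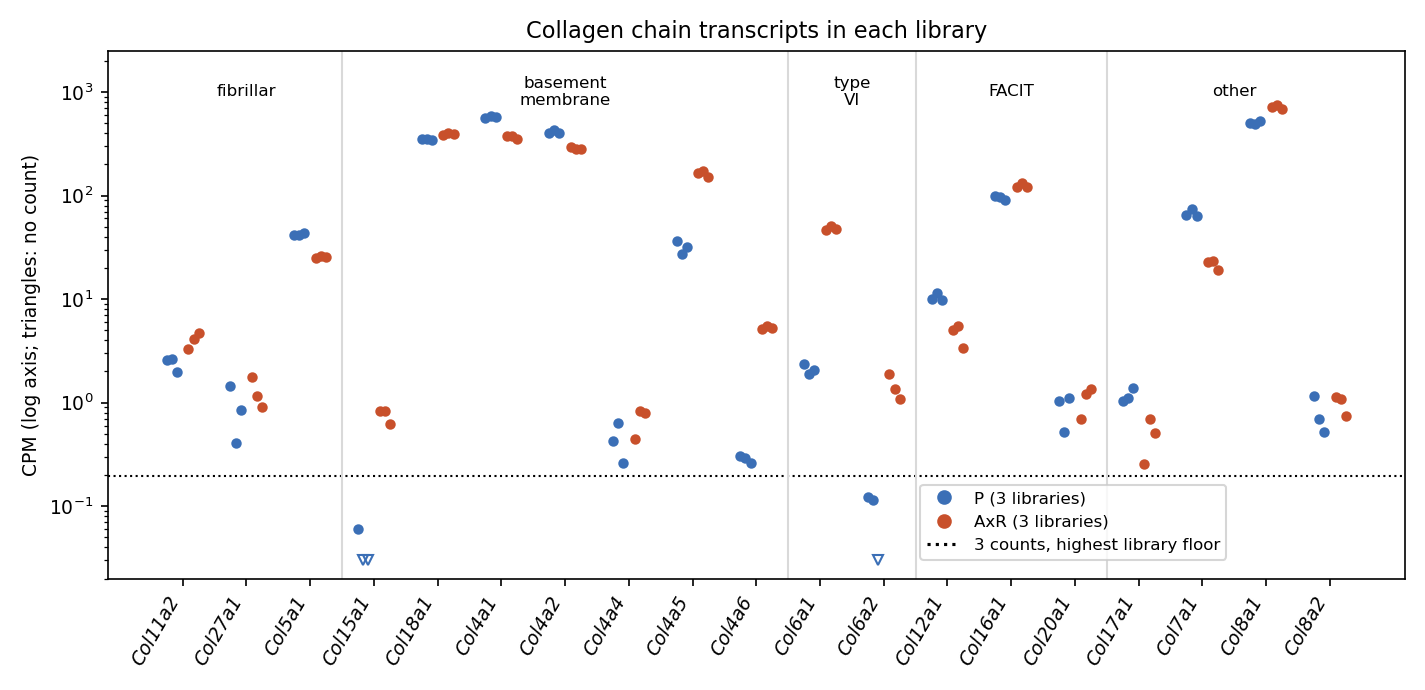
Level of each of the 19 tested collagen chain genes in CPM (log axis) in the 3 P libraries (blue) and the 3 AxR libraries (orange), by class, with open triangles for libraries without a count and a dotted line at the highest floor of 3 counts. Col4a1, Col4a2, Col18a1 and Col8a1 were the 4 most abundant in both lines, while Col4a5, Col4a6 and Col6a1 stand apart between the lines, and Col15a1 and Col6a2 were at or under the floor in P.

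**Figure D3:**
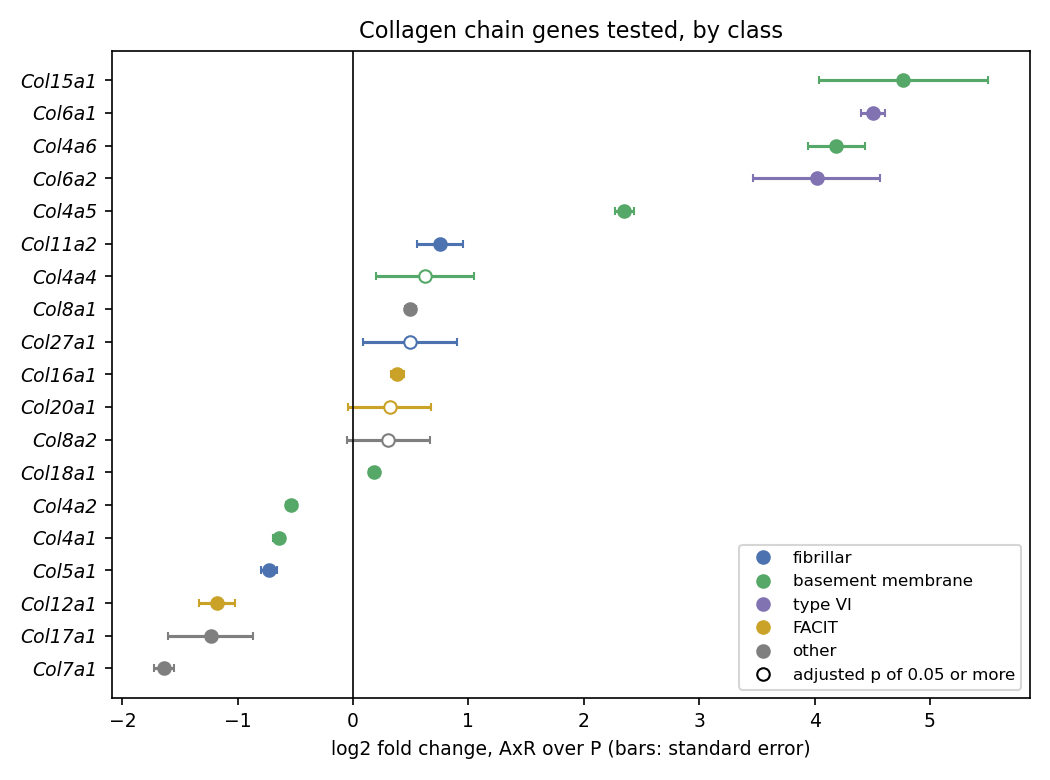
Log2 fold change of AxR over P for the 19 tested collagen chain genes, ordered by size and coloured by class, with standard errors as bars and open points for an adjusted p of 0.05 or more. Col7a1 had the lowest value (-1.64) and Col6a1 had 4.51, the fitted values of Col15a1 and Col6a2 rest on at most 2 counts per P library and are not ranked, and the basement membrane class lies on both sides of 0.

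The sum over all 44 chains went from 2102 ± 19.8 CPM in P to 2171 ± 69.3 CPM in AxR cells (SD, n = 3), a ratio of 1.03, but its make-up differed. Basement membrane chains made the largest class, with 1369 ± 26.1 CPM in P and 1217 ± 30.7 CPM in AxR cells. The class named other came next, with 578 ± 11.2 and 740 ± 30.9 CPM, nearly all of it Col8a1. FACIT chains summed to 107 ± 4.25 CPM in P and 132 ± 6.56 CPM in AxR cells. Fibrillar chains summed to 46.3 ± 0.633 and 31.5 ± 0.958 CPM. Type VI chains summed to 2.26 ± 0.256 CPM in P and 50.1 ± 1.70 CPM in AxR cells, a ratio of 22.2. These sums are descriptions over chosen genes and carry no test.

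Type IV collagen is the basement membrane network, and its chains moved in opposite directions. The major pair fell. Col4a1 (ENSMUSG00000031502.11, chromosome 8 of GRCm38 from 11198423 to 11312826, minus strand) had 566, 583 and 572 CPM in P replicates 1 to 3 and 373, 377 and 352 CPM in AxR replicates 1 to 3, the order used for all values that follow. No AxR library reached the level of any P library, with a log2 fold change of -0.64 (SE 0.046; edgeR quasi-likelihood adjusted p = 1.27e-08). Its partner Col4a2 (ENSMUSG00000031503.13, chromosome 8 from 11312805 to 11449287, plus strand), which starts on the opposite strand within 22 shared bases, had 405, 433 and 401 CPM in P and 292, 284 and 278 CPM in AxR libraries. It was again lower in all 3 AxR libraries, with a log2 fold change of -0.54 (SE 0.048; edgeR adjusted p = 1.52e-07). On chromosome 8 the median log2 fold change of all tested genes was -0.18. The nearest tested neighbours of the pair were also lower, with log2 fold changes of -1.01 for Irs2 on the Col4a1 side and -0.85 for Rab20 on the Col4a2 side.

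The X-linked pair rose. Col4a5 (ENSMUSG00000031274.16, chromosome X from 141475385 to 141689234, plus strand), a chain of kidney, lung and skin basement membranes, had 36.2, 27.3 and 32.0 CPM in P and 164, 171 and 152 CPM in AxR libraries. The lowest AxR library lay far above the highest P library, with a log2 fold change of 2.35 (SE 0.085; edgeR quasi-likelihood adjusted p = 6.35e-11). Col4a6 (ENSMUSG00000031273.16, chromosome X from 141165403 to 141474076, minus strand), the partner of Col4a5 in smooth muscle and epithelial basement membranes, was close to the floor in P cells with 5, 5 and 4 counts. It had 81, 87 and 93 counts in AxR libraries, or 0.284 ± 0.0219 CPM in P against 5.33 ± 0.205 CPM in AxR cells (SD, n = 3), a log2 fold change of 4.19 (SE 0.25; edgeR adjusted p = 1.51e-09). Col4a6 passed the low-count filter through AxR alone. Tested genes of chromosome X had a median log2 fold change of 0.24. Atg4a, which lies 1133 bases from the other end of Col4a6, had 8.57 CPM in P and 8.59 CPM in AxR cells.

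The remaining type IV chains were scarce. Col4a4 had 7, 11 and 4 counts in P and 7, 13 and 14 counts in AxR libraries, which overlapped (log2 fold change 0.62, edgeR quasi-likelihood adjusted p = 0.215). Col4a3 had at most 2 counts in any library and was not tested. The make-up of type IV transcripts therefore shifted on a scale that allows for gene length, CPM per kilobase of merged exons. Col4a1 and Col4a2 together held 96.6 ± 0.505% of the type IV level in P and 78.7 ± 0.604% in AxR cells (SD, n = 3). Col4a5 rose from 3.29 ± 0.515% to 20.6 ± 0.598% of that level. Col4a6 stayed a small share, 0.0248% in P and 0.571% in AxR cells.

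**Figure D4:**
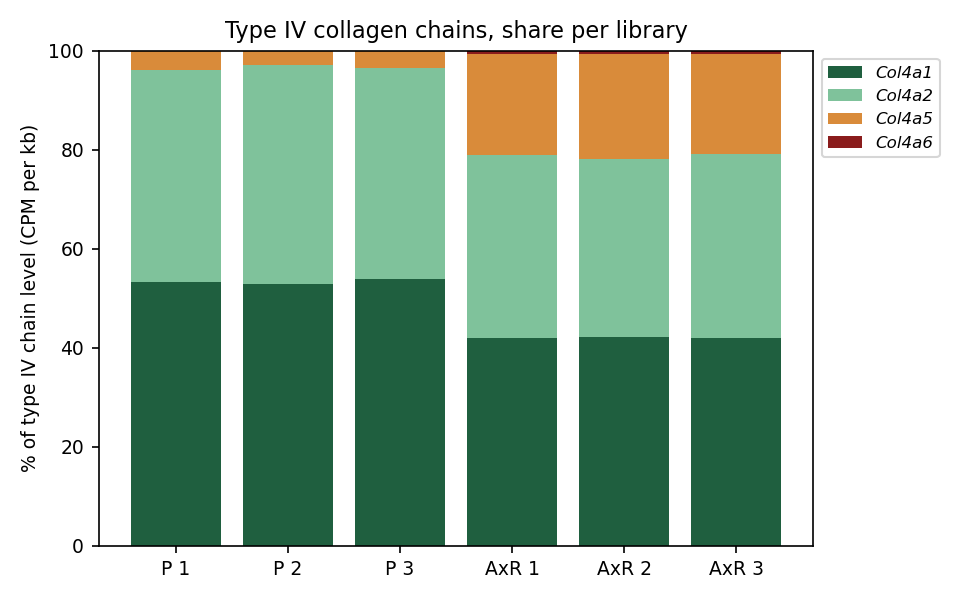
Share of the type IV collagen level, in percent of CPM per kilobase, held by Col4a1, Col4a2, Col4a5 and Col4a6 in each of the 6 libraries. Col4a3 and Col4a4 are in the total but too small to draw, and the orange share of Col4a5 is 20.1 to 21.3% in the AxR libraries against 2.75 to 3.78% in the P libraries.

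The balance between chains that can share a triple helix was compared as their log2 ratio in a library, which does not depend on normalization. It was taken for the 4 pairs where both chains were tested and had at least 10 counts in every library of at least 1 line. Exact two-sided permutation tests of 3 against 3 libraries cannot give a p under 0.1. Col4a1 over Col4a2 differed between the lines by -0.11 (exact permutation p = 0.1, 0.2 after Benjamini-Hochberg adjustment over the 4 pairs). Its level was 1.23 times that of Col4a2 per kilobase in P and 1.14 times in AxR cells. Col4a5 over Col4a6 differed by -1.73 (exact p = 0.1, adjusted 0.2), and Col4a6 was far below Col4a5 in both lines. Both of these ratios were separated completely between the lines. Per kilobase the level of Col4a5 was 133 times that of Col4a6 in P and 36.2 times in AxR cells. The value in P rests on 5, 5 and 4 counts of Col4a6 and is imprecise. The ratio of Col6a1 to Col6a2 differed by 0.49 (exact p = 0.5, adjusted 0.667; 0.073 to 1.21 with each library left out) and that of Col8a1 to Col8a2 by 0.13 (exact p = 0.9), with overlapping libraries. The log2 ratio of Col6a1 to Col6a2 had SDs of 1.25 in P and 0.43 in AxR cells, and that of Col8a1 to Col8a2 had SDs of 0.58 and 0.29, so these counts could not resolve small shifts. Col6a2 had 2, 2 and 0 counts in P, so its ratio there is set largely by the pseudocount of 0.5 and says nothing of the balance in P cells.

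Col15a1 and Col18a1, related basement membrane collagens with a releasable terminal domain (endostatin in Col18a1), differed widely in level. Col18a1 (chromosome 10 from 77052178 to 77166548, minus strand) had 355, 353 and 340 CPM in P and 387, 406 and 394 CPM in AxR libraries. It was higher in all 3 AxR libraries by a small margin, with a log2 fold change of 0.18 (SE 0.045; edgeR quasi-likelihood adjusted p = 0.00282). This is below the chromosome 10 median of 0.25. Slc19a1 overlaps Col18a1 by 8825 bases on the opposite strand, with 38.1 CPM in P and 28.1 CPM in AxR cells, and whether the counting used strand is not stated. Col15a1 (chromosome 4 from 47208161 to 47313167, plus strand) had 1, 0 and 0 counts in P and 13, 13 and 11 counts in AxR libraries. The ratio of its summed counts was 37.1, with an exact 95% interval of 6.25 to 1504 that covers counting error only, and the adjusted p was 4.09e-05 in the edgeR test. Col15a1 passed the low-count filter through AxR alone.

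Type VI collagen had the largest ratio of summed level among the 5 classes. Col6a1 (ENSMUSG00000001119.7, chromosome 10 from 76708792 to 76726168, minus strand) had 2.37, 1.91 and 2.09 CPM in P and 46.7, 50.4 and 47.8 CPM in AxR libraries. The lines were wide apart, with a log2 fold change of 4.51 (SE 0.10; edgeR quasi-likelihood adjusted p = 7.53e-14). Col6a2 (ENSMUSG00000020241.13, chromosome 10 from 76595762 to 76623630, minus strand), the neighbouring gene 85162 bases away, had 2, 2 and 0 counts in P and 30, 21 and 19 counts in AxR libraries. It was at or under the floor in P, and its summed counts gave a ratio of 17.5 (exact 95% interval 6.55 to 66.2, adjusted p = 1.2e-05 in the edgeR test). Col6a2 passed the low-count filter through AxR alone. The partners of Col6a1 and Col6a2 were scarce. Col6a3 had 1 count in AxR replicate 1 and none elsewhere, Col6a4 had 1 count in each AxR library and none in P, and Col6a6 had no count. Col6a5 had 1, 2 and 0 counts in P and 6, 4 and 1 in AxR libraries, too few to test. Per kilobase the level of Col6a1 was 67.4 times that of Col6a2 in AxR cells with the length of merged exons, and 34.2 times with transcript length. On chromosome 10 beside the pair, Lss rose by a log2 fold change of 1.02 and Pcbp3 by 0.41.

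Fibrillar collagens, the main product of fibroblasts, were nearly absent apart from Col5a1. Col5a1 (ENSMUSG00000026837.15, chromosome 2 from 27886425 to 28039514, plus strand), a chain that starts fibrils, had 41.4, 41.5 and 43.2 CPM in P and 24.6, 26.3 and 25.2 CPM in AxR libraries. It fell in all 3 AxR libraries, with a log2 fold change of -0.73 (SE 0.067; edgeR quasi-likelihood adjusted p = 1.91e-07). Its partner chain Col5a2 had at most 3 counts in any library, and Col5a3 at most 2. Col11a2, a chain of cartilage fibrils, rose from 2.39 ± 0.378 to 4.04 ± 0.688 CPM (SD, n = 3), with a log2 fold change of 0.75 (SE 0.20; edgeR adjusted p = 0.00354), while its partner Col11a1 had no count. Col27a1 had a log2 fold change of 0.50 and overlapping libraries (edgeR adjusted p = 0.303).

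The chains of type I collagen, the commonest of connective tissue, were too scarce to test. Col1a1 had 14, 10 and 3 counts in P and 4, 5 and 3 counts in AxR libraries. Col1a2 had 0, 0 and 2 counts in P and 3, 5 and 3 counts in AxR libraries, a ratio of summed counts of 5.51 (exact 95% interval 1.2 to 51.2). Neither chain reached 1 CPM in any library. Col2a1, the cartilage collagen, had 7, 7 and 3 counts in P and 2 counts in each AxR library (ratio 0.354, exact 95% interval 0.114 to 0.940). Col3a1 had no count, and Col24a1 had 1 in all.

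FACIT collagens moved both ways. Col16a1 (ENSMUSG00000040690.15, chromosome 4 from 130047840 to 130099283, plus strand), found near basement membranes and small fibrils, had 99.4, 96.1 and 91.4 CPM in P and 121, 131 and 122 CPM in AxR libraries. Every AxR library was higher, with a log2 fold change of 0.38 (SE 0.055; edgeR quasi-likelihood adjusted p = 1.97e-05). Col12a1 (ENSMUSG00000032332.17, chromosome 9 from 79598991 to 79718831, minus strand), which lies on type I fibrils, had 165, 199 and 150 counts in P and 80, 86 and 59 counts in AxR libraries. It was lower in all 3, with a log2 fold change of -1.18 (SE 0.16; edgeR adjusted p = 1.11e-05), where chromosome 9 had a median of -0.23. Col20a1 had a log2 fold change of 0.32 (edgeR adjusted p = 0.459) and is uncertain, since another annotated transcript overlaps it by 741 bases on the same strand. Among untested members, Col9a3 had 5, 1 and 2 counts in P and 16, 18 and 4 counts in AxR libraries. Col14a1 had 1, 3 and 3 counts in P and 5, 4 and 4 in AxR libraries, with an interval of the ratio from 0.690 to 5.51. Col9a2 and Col22a1 had 1 count each in all libraries together, and Col9a1 and Col19a1 none.

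The remaining collagens include some that anchor epithelia and some that form short-chain networks. Col8a1 (ENSMUSG00000068196.4, chromosome 16 from 57624258 to 57754737, minus strand), a short-chain collagen of vessel walls and of the cornea, was the collagen gene of highest mean CPM. It had 503, 495 and 525 CPM in P and 715, 747 and 690 CPM in AxR libraries. The lines were apart, with a log2 fold change of 0.50 (SE 0.048; edgeR quasi-likelihood adjusted p = 3.23e-07), against a median of -0.32 on chromosome 16. Its partner Col8a2 had 0.790 ± 0.328 CPM in P and 0.989 ± 0.218 CPM in AxR cells (SD, n = 3), with overlapping libraries (edgeR adjusted p = 0.474). Neither of these 2 genes has an internal coding exon.

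The epithelial anchoring collagens fell. Col7a1 (ENSMUSG00000025650.12, chromosome 9 from 108953586 to 108984875, plus strand) makes the anchoring fibrils beneath epithelia, and its longest run held 75 of 470 glycine triplets. It had 65.3, 74.9 and 63.2 CPM in P and 22.9, 23.1 and 19.3 CPM in AxR libraries. All 3 AxR libraries were far below P, with a log2 fold change of -1.64 (SE 0.086; edgeR quasi-likelihood adjusted p = 4.52e-10). The genes on either side, Uqcrc1 and Pfkfb4, had log2 fold changes of -0.08 and 0.35 that did not pass the threshold. Col17a1 (chromosome 19 from 47646344 to 47692094, minus strand), a transmembrane collagen of hemidesmosomes, had 17, 19 and 21 counts in P and 4, 11 and 9 in AxR libraries. These did not overlap, and they gave a log2 fold change of -1.23 (SE 0.37; edgeR adjusted p = 0.00889). Col17a1 passed the low-count filter through P alone.

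Other members of this class were at or near the floor. Col10a1 had 4, 1 and 0 counts in P and 2, 2 and 0 in AxR libraries, and Col23a1 had 1 count in each P library and 5, 0 and 1 in AxR libraries, with intervals of the ratio of AxR to P of 0.159 to 3.72 and 0.428 to 12.4. Col13a1, Col25a1, Col26a1 and Col28a1 had no count. In all, 25 of the 44 genes were not tested. A ceiling of 3 counts in every library held for 17 of the 44, and 9 of these had no count, which at 3 counts allows a level of up to 0.196 CPM.

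Levels between chains were compared per kilobase. In P cells Col4a1 had 76.9, Col8a1 64.8, Col4a2 62.4 and Col18a1 49.8 CPM per kilobase of merged exons, and Col16a1 followed with 14.2. In AxR cells the order was Col8a1 with 91.5, Col18a1 with 56.3, Col4a1 with 49.2, Col4a2 with 43.0, Col4a5 with 24.2, Col16a1 with 18.5 and Col6a1 with 11.0. Col6a1 had been at 0.484 in P cells. Col8a1 thus took 22.6 ± 0.898% of the summed collagen level in P and 30.3 ± 0.268% in AxR cells (SD, n = 3), while Col4a1 took 26.8 ± 0.240% and 16.3 ± 0.224%. The order in P depends on the length used. With the length of the coding transcript used for the sequences in place of merged exons, Col8a1 had 99.4 and Col4a1 86.7 CPM per kilobase in P, and Col8a1 came first in both lines.

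Genes that modify, export, cut, bind or degrade collagen were counted from lists of 7 kinds. Of 71 genes listed, 48 were tested, 18 were higher in AxR cells, 22 were lower and 8 did not pass the threshold, beside 32.8% higher and 30.8% lower over all genes tested. The median log2 fold change was -0.09, and 8 rose and 8 fell by at least 1 on the log2 scale, beside 7.99% and 4.72% of all genes. Of all 13550 genes tested, 1034 passed the low-count filter in one line only. Of the 48, 44 passed it in each line taken alone and 4 in one line only. P4ha3, Mrc2 and Itga10 passed through AxR and P3h4 through P, so their being tested leans to a difference in that direction. The counts of single lists that follow have the same all-gene shares as their background and are descriptions of few genes each. Among 14 tested genes of hydroxylation and glycosylation, 5 were higher and 7 lower. P4hb, the shared subunit of prolyl 4-hydroxylase and the most abundant of the list, had 397 ± 14.3 CPM in P and 427 ± 9.86 CPM in AxR cells (SD, n = 3; edgeR quasi-likelihood adjusted p = 0.0649). Its catalytic partners P4ha3 and P4ha1 rose by log2 fold changes of 1.96 and 0.82. The prolyl 3-hydroxylases split, with log2 fold changes of 1.28 for P3h3 and -3.37 for P3h2. P3h4, a relative without hydroxylase activity that aids lysyl hydroxylation, had 77 counts in the P libraries together and 1 in the AxR libraries, a ratio of P to AxR of 76.8 (exact 95% interval 13.4 to 3074). Ppib, the cyclophilin that works with the prolyl 3-hydroxylase complex, went from 327 ± 13.7 to 163 ± 10.8 CPM (log2 fold change -1.01).

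Of 7 tested chaperones and export factors, 3 were higher and 3 lower, beside all-gene shares of 32.8% and 30.8%. Serpinh1, the collagen chaperone HSP47, had 353 ± 12.4 CPM in P and 408 ± 6.45 CPM in AxR cells (log2 fold change 0.21), Fkbp14 and Sec24d rose by log2 fold changes of 0.44 and 0.41, and Tmem38b, Klhl12 and Mia3 had log2 fold changes of -0.87, -0.53 and -0.18. Of 4 tested genes of propeptide processing, 1 rose and 3 fell. The riser was Pcolce, the enhancer of C-proteinase, from 11.7 ± 0.579 to 105 ± 6.18 CPM (log2 fold change 3.16, adjusted p = 7.53e-14 in the same edgeR test). The proteinase itself, Bmp1, had a log2 fold change of -0.43, Pcolce2 of -1.03 and Adamts14 of -1.31. Of 3 tested crosslinking enzymes, Loxl4 rose from 153 to 329 CPM (log2 fold change 1.11) and Loxl3 by 1.77, and Pxdn, the peroxidasin that crosslinks type IV collagen, had 118 and 117 CPM. Lox was at or under the floor in every library. The calls of Fkbp14 and Mia3 turned on single libraries, since their edgeR adjusted p was 0.073 and 0.0753 without P replicate 1 and 0.0869 and 0.095 without AxR replicate 2. Fkbp14 also lost its call without P replicate 2 (edgeR adjusted p = 0.0628), and Mia3 without P replicate 3 (0.0646) and without AxR replicate 3 (0.0639). With all libraries kept, Fkbp14 lost its call in the test of DESeq2 too (adjusted p = 0.0923).

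Of 7 tested collagen receptors, 3 rose and 2 fell, beside all-gene shares of 32.8% and 30.8%. Itga2, the collagen-binding integrin chain of epithelia, fell from 525 ± 10.5 to 127 ± 2.90 CPM (SD, n = 3; log2 fold change -2.05, edgeR quasi-likelihood adjusted p = 7.53e-14). Itgb1, with which it pairs, had a log2 fold change of -0.41. Mrc2, an endocytic collagen receptor, went from 0.137 ± 0.184 to 3.34 ± 0.749 CPM, and Itga10 and Ddr2 rose by log2 fold changes of 1.28 and 0.42. Mrc2 and Itga10 passed the low-count filter through AxR alone. Of 3 tested collagen-degrading proteases, Mmp14 rose by 0.88, and Mmp9 and Mmp13 had log2 fold changes of -1.87 and -1.63.

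Among 10 tested partners of type IV collagen in the basement membrane, 3 rose and 5 fell, where 32.8% of all genes rose and 30.8% fell. Nid1, the nidogen that bridges laminin and type IV collagen, rose from 0.731 ± 0.0711 to 5.39 ± 1.04 CPM (SD, n = 3; log2 fold change 2.86). Agrn and Hspg2, the heparan sulphate proteoglycans agrin and perlecan, had log2 fold changes of 0.66 and 0.13, and the edgeR adjusted p of Hspg2 was 0.0559 without P replicate 1, 0.142 without P replicate 3, 0.092 without AxR replicate 3 and 0.0892 with library size only. The 5 that fell were all laminin chains. Lamb1, the most abundant of the list, had a log2 fold change of -0.91, and Lamc1 of -0.49.

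**Figure D5:**
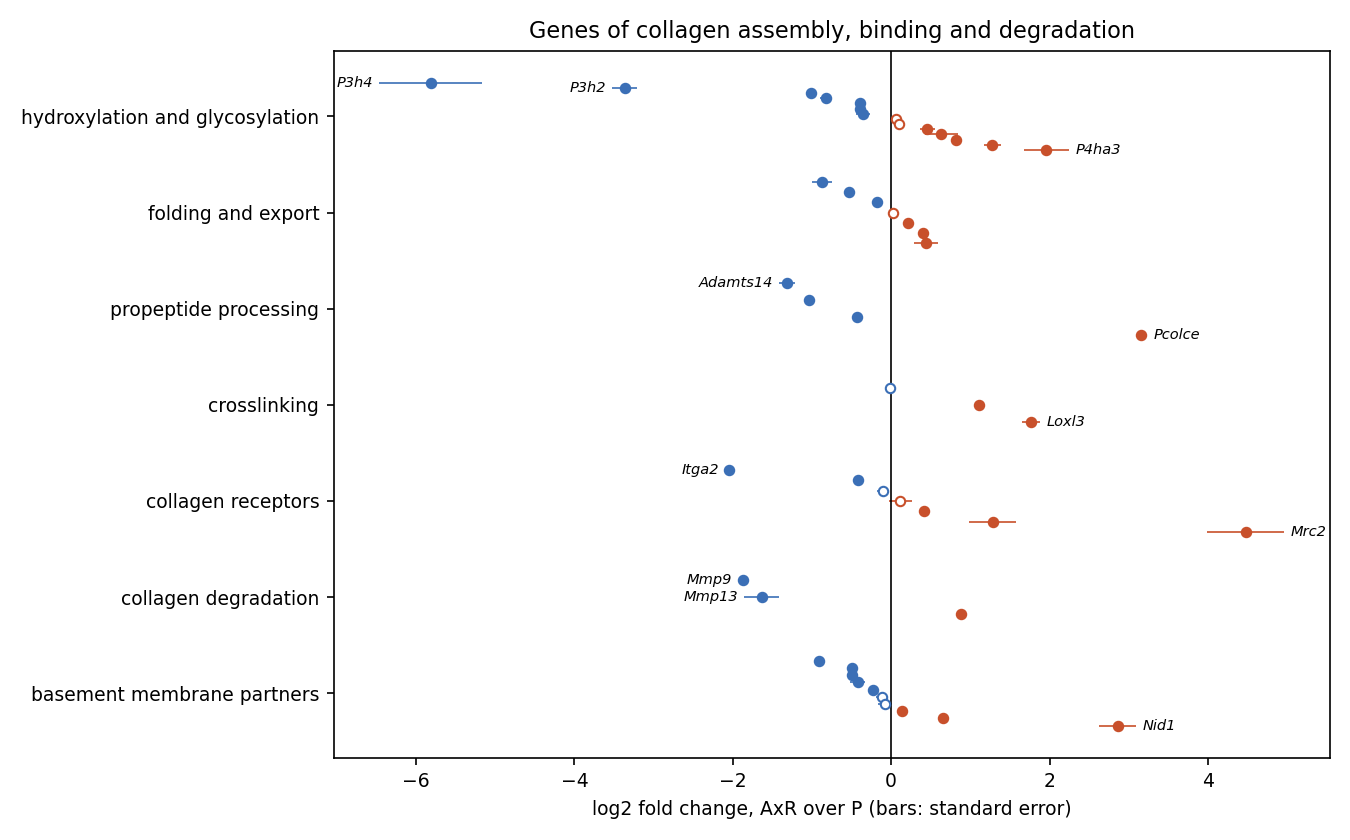
Log2 fold change of AxR over P, with standard errors as bars, for the 48 tested genes of collagen modification, export, processing, crosslinking, binding and degradation and of the basement membrane, 1 row per list. Open points have an adjusted p of 0.05 or more, and genes with a change of at least 1.3 in size are named. Every list has genes past the threshold on both sides of 0 except crosslinking, and the point of P3h4 rests on 1 count in the AxR libraries together, so its place is not ranked.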

How the data were processed

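Poly(A) RNA of 3 P and 3 AxR samples was sequenced by the authors from stranded libraries. Reads were aligned to GRCm38 with STAR 2.6.0a and GENCODE M16, after FastQC 0.11.5. The authors deposited estimated counts per gene from RSEM 1.3.1, which divides ambiguous reads among genes by likelihood, before filtering and normalization. Whether strand was used in counting is not stated in the sources used here.

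Samples were grouped by their titles. After rounding, genes with too few counts were removed (filterByExpr) and upper quartile factors were applied. The lines were compared in edgeR 4.0.16 (R 4.3.3) by its robust quasi-likelihood test, with no further term in the model, and p-values were adjusted by Benjamini-Hochberg over 13550 genes, with 0.05 as the threshold. The biological coefficient of variation was 0.0595. Symbols, exon lengths and coding sequences came from GENCODE M21, in which 105 of 53465 identifiers were not matched, and promoter sequences from RefSeq. Chain ratios used a pseudocount of 0.5 and exact permutation tests. Intervals of count ratios are exact binomial (Clopper-Pearson) intervals of summed counts and, like the floor of 3 counts, cover counting error only.

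Libraries held 15495260 to 17294525 counts, and libraries of one line differed by more than sampling noise (chi-square per degree of freedom 5.03 to 19.4), so all were kept apart. The members and lists were chosen with earlier results of these data known. All collagen chain genes are named, with values in every library for those past the threshold with a log2 fold change of at least 1 in size, for the 10 of highest mean CPM and for those at the floor in one line only. Of each other list, the gene of highest mean CPM and up to 3 genes with the largest change in each direction are named. The result of 1 gene that this rule picks is not reported here. Marker genes, neighbours and overlapping genes are named beside the results they touch, and were chosen after values were seen. Alternatives were TMM, library size only, DESeq2 1.42.0, limma-voom (limma 3.58.1), 2 other low-count filters, a threshold on size, the replicate number as a block and each library left out, and, added after the data were seen, transcript length.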

Additional observations from a re-analysis of the deposited data

How the results depend on the processing

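Apart from the requirement on size, no call of a tested collagen chain gene changed under any alternative that gave it a value. Requiring a log2 fold change of at least 1 in size lowered the counts to 5 higher and 3 lower collagen genes, 8 and 8 genes of the other lists, and 1083 and 640 of all genes. A minimum of 10 counts in every library left 6 higher and 5 lower collagen genes, as fewer were tested. With each library left out in turn, 9 to 10 collagen genes were higher and 6 lower, 15 to 18 genes of the other lists were higher and 21 to 22 lower, and 4124 to 4499 of all genes were higher and 3782 to 4112 lower. Libraries of the same number did not deviate together (correlations -0.0154, -0.0226 and -0.0527). No pairing by number was seen, though these correlations cannot exclude one. With the replicate number as a block, 9 collagen genes were higher and 6 lower, and 4304 and 4023 of all genes, and Hspg2 lost its call (edgeR adjusted p = 0.0713). The log2 ratio of Col8a1 to Col8a2 differed by -0.17 without P replicate 1 and by -0.029 without AxR replicate 3, over a range of -0.17 to 0.41 with each library left out. The log2 fold change of Pxdn turned to 0.023 without P replicate 1 and 0.028 without AxR replicate 3 (range -0.052 to 0.028), and that of Itga1 to -0.052 without AxR replicate 2 (range -0.052 to 0.23). None of these passed a threshold, and their causes were not tested. Hspg2, P4ha2, Fkbp14 and Mia3 each lost their call in 4 or 5 alternatives, with an adjusted p of at most 0.142, and P4hb gained one without AxR replicate 3 (edgeR adjusted p = 0.0325, up to 0.236 over the alternatives). The edgeR adjusted p of P4ha2 became 0.0555 when P replicate 1 was left out, 0.0675 for P replicate 2 and 0.0774 for AxR replicate 2. With all libraries kept, the DESeq2 adjusted p was 0.0551 for P4ha2 and 0.0923 for Fkbp14. With transcript length the ratios per kilobase in AxR cells became 1.26 for Col4a1 over Col4a2, 31.0 for Col4a5 over Col4a6, 34.2 for Col6a1 over Col6a2 and 635 for Col8a1 over Col8a2. For 12 combinations of a gene and an alternative no value could be had.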
